A study of Mus musculus with 20 samples.

Results

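The major urinary proteins are encoded by a mouse gene family on chromosome 4, and 9 of its genes are described here: Mup1, Mup3, Mup7, Mup8, Mup11, Mup12, Mup14, Mup20 and Mup21. They were taken by symbol from the 24972 rows of a liver expression table and were chosen by their measured TPM on the 2 diets, so the diet values below describe that choice and carry no test. The table held 12 further Mup rows, which are given beside them. Bulk mRNA was sequenced from total liver of mice labelled male after 6 weeks of feeding, in 4 groups. WT mice gave 4 libraries on control diet and 4 on alcohol diet, and RageΔMye mice gave 3 on either diet. The label RageΔMye is read as a myeloid-cell deletion of Ager, which encodes the pattern-recognition receptor RAGE. No source used here gives the Cre driver, the strain, the age of the mice or whether a library held 1 animal, so the spread between replicates may be technical. Values are TPM, a share of transcripts scaled so that every library sums to about 1000000, in which levels are already scaled for transcript length.

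Major urinary proteins are small secreted lipocalins, barrel-shaped carriers of hydrophobic molecules. Hepatocytes secrete them into blood, the kidney passes them into urine, and there they bind and slowly release volatile pheromones. Adult male mice make far more of them than females, because pulses of growth hormone act through its receptor and the transcription factor STAT5B to raise male-typical liver genes. The central genes of the cluster are nearly identical copies, whereas the outer genes have diverged in sequence. MUP20, also called darcin, is a male urinary protein that female mice find attractive.

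The 21 Mup genes of the table lay on chromosome 4 of GRCm38 (mm10) between positions 59956804 and 62150863, a stretch of 2.19 Mb in the GENCODE M21 annotation. All 9 genes are protein coding and lie on the minus strand, with 7 exons in the transcript used for 8 of them and 6 for Mup21. Mup7 occupied chr4:60066469-60070475, Mup20 chr4:62050234-62054158, Mup3 chr4:62083476-62087342 and Mup21 chr4:62147932-62150863. No Mup exon overlapped an exon on the opposite strand.

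Sequence decides how well reads can be assigned to 1 copy. Coding sequences of Mup1, Mup7, Mup8, Mup11, Mup12 and Mup14 shared 98.9% to 99.6% of aligned bases with each other. Mup20 shared 90.6% to 91.4% with those 6, and Mup3 and Mup21 shared 84.2% to 86.0% with them and 96.3% with each other. The 60 coding bases below, all in exon 2, were the gap-free stretch with the most differences and show what a read would have to tell apart. Capitals mark bases that differ from Mup14, whose stretch is chr4:61303360-61303419; that of Mup20 is chr4:62053518-62053577, that of Mup3 chr4:62086838-62086897 and that of Mup21 chr4:62150233-62150292, each read on the minus strand.
Mup14: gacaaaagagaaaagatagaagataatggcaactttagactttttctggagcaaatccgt
Mup8: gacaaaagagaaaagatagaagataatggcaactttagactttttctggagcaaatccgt
Mup1: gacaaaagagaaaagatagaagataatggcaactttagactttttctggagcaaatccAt
Mup11: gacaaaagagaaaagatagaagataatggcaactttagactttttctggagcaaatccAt
Mup12: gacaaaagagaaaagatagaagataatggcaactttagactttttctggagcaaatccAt
Mup7: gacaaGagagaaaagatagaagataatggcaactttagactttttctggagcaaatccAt
Mup20: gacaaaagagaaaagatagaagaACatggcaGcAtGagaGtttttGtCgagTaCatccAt
Mup3: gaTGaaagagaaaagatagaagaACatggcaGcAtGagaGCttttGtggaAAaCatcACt
Mup21: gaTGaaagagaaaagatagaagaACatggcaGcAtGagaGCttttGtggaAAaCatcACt
Mup8 had no base that differed from Mup14 in this stretch, Mup7 had 2, Mup20 had 11, and Mup3 and Mup21 had 15 each. Of all 50-base windows of the transcripts, 84.4% of Mup3, 80.7% of Mup21 and 49.9% of Mup20 occurred in no other Mup gene. For the 6 near-identical genes the share was 2.40% to 14.6%. Levels of Mup3, Mup20 and Mup21 are therefore the least open to misassigned reads, and those of single near-identical copies are uncertain because the authors' counting could split reads between them.

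**Figure D1:**
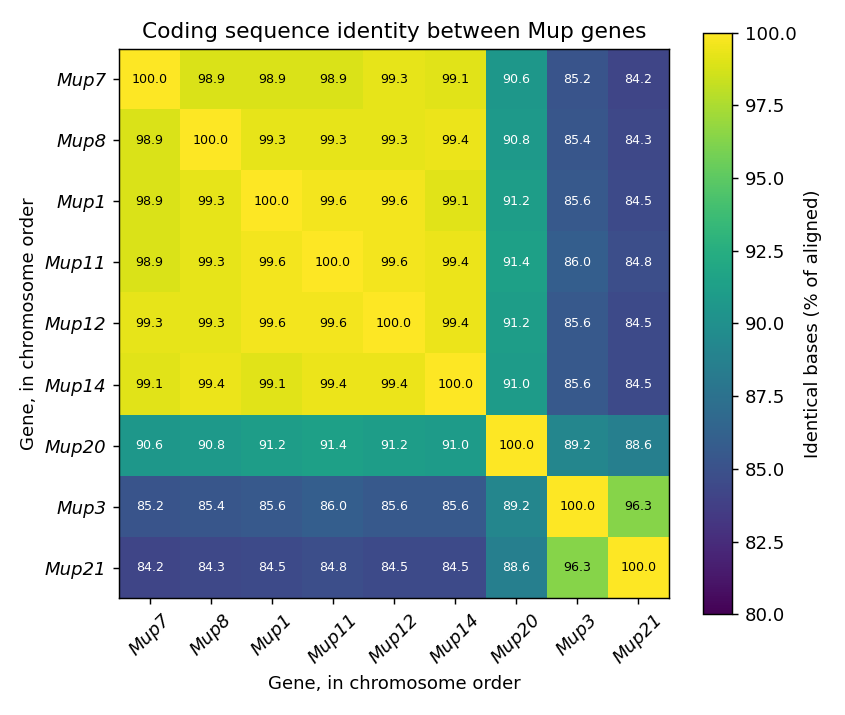
Identical bases as a percentage of aligned coding bases for each pair of the 9 Mup genes, ordered along chromosome 4, with colour giving the same value as the printed number. Mup7 to Mup14 form a block of at least 98.9%, while Mup20, Mup3 and Mup21 stand apart.

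Upstream windows of 5 of the 9 genes were found in the RefSeq promoter table of GRCm38.p6. Mup1, Mup8, Mup12 and Mup20 were not matched. Up to the annotated start, 250 bases are shown for 2 near-identical genes, Mup11 (chr4:60662396-60662645) and Mup14 (chr4:61303999-61304248), and for 2 diverged genes, Mup3 (chr4:62087318-62087567) and Mup21 (chr4:62150842-62151091), because these genes fell by very different amounts on alcohol in WT. All are written on the minus strand, and capitals mark ATCAAT, the core of the site known for the hepatocyte factor HNF6.
Mup11: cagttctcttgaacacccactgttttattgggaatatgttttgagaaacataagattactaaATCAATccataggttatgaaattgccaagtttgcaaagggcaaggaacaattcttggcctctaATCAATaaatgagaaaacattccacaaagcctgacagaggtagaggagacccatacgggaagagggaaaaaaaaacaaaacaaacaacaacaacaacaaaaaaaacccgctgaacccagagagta
Mup14: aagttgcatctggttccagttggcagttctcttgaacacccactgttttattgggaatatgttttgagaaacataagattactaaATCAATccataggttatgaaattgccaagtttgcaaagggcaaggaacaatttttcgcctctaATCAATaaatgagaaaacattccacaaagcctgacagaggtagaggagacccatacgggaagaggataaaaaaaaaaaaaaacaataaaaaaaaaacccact
Mup3: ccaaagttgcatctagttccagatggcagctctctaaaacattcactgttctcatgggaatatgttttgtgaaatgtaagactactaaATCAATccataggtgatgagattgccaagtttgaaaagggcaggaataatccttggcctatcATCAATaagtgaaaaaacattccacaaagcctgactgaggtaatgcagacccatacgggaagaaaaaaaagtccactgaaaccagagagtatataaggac
Mup21: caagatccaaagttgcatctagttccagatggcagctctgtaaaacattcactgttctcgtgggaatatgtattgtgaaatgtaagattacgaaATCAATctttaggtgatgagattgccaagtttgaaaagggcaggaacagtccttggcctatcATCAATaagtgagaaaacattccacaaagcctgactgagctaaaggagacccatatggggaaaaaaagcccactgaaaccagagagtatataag
Both strands of each window were searched for 6 motifs. ATCAAT occurred in 5 of 5 windows of the described genes and in 14 of 14 Mup windows, against 6.72% of all 32851 promoter windows. Each Mup window held 2 copies, with starts 62 or 63 bases apart, and 0.609% of all windows held 2 or more. The C/EBP motif TTNNGNAA also occurred in all 5, against 36.8% of all windows. The STAT5 motif TTCNNNGAA was in none of the 5 (7.02% of all windows), nor were TATAAA (12.4%) and the HNF4 motif CAAAGTCCA (0.384%). Only the exact string TATAAA was searched, and the Mup3 and Mup21 windows hold tatataag near their ends. Windows stop at the annotated start, that of Mup11 at gagagta, so absence of a TATA element is not shown. TGTTCT, part of the glucocorticoid response element, occurred in the windows of Mup3 and Mup21 and in 16.1% of all windows. Mup11 and Mup14 shared 96.9% of their aligned upstream bases, Mup3 and Mup21 shared 93.4%, and Mup14 and Mup3 shared 83.7%.

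WT libraries and those labelled RageΔMye differed in ways that bear on every comparison of genotypes. WT libraries listed 15113 to 15599 genes above 0 and the RageΔMye libraries 7596 to 8502. Among values above 0, the commonest ranged from 0.0576 to 0.0835 TPM over WT libraries and from 14.4 to 20.5 TPM over RageΔMye libraries, so 0 in RageΔMye means only that a gene was listed at 0, and 1 to 3 housekeeping genes were listed at 0 in each of those libraries. Genes with an opposite-strand exon overlap held 15.4% to 18.3% of TPM in WT and 55.8% to 61.7% in RageΔMye. Ager stood at 0.0194 to 0.478 TPM in WT and at 93.1 to 166 TPM in libraries labelled RageΔMye, which goes against the label for whole liver RNA. Whether both genotypes were counted on the same strand was not tested, and no Mup exon has a partner on the opposite strand, so what a Mup value in RageΔMye counts is uncertain. Summed TPM of 14 hepatocyte markers, among them Alb and Ttr, was 177796 to 219194 in WT and 57821 to 73837 in RageΔMye.

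Sex-linked transcripts did not match a single sex, although every sample was labelled male. In WT on control diet, 4 Y-linked genes summed to 11.3 to 16.6 TPM and Xist, which silences the second X chromosome in females, stood at 0.00165 to 0.135 TPM. In WT on alcohol diet the Y-linked sum was 0 to 0.0161 TPM and Xist 17.8 to 27.3 TPM. In RageΔMye the Y-linked sum was 3.16 to 4.50 TPM on control diet and 0.276 to 1.74 TPM on alcohol, with Xist at 0 to 3.10 TPM. Mup levels followed the sex-linked transcripts as they followed the diet in WT liver, and the 2 cannot be told apart.

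In WT liver on control diet, Mup mRNA was among the most abundant of the library. The 9 genes summed to 85228, 80466, 80548 and 56108 TPM in the 4 libraries, and all 21 Mup rows held 7.26% to 10.9% of the TPM. Mup7 was the highest at 26521 ± 3632 TPM (SD, n = 4), followed by Mup20 at 16931 ± 6147, Mup11 at 10650 ± 3754, Mup14 at 10214 ± 2347 and Mup3 at 7883 ± 553. Neighbours among those 5 overlapped between libraries, so their order is not resolved. Mup1 at 2598 ± 1578, Mup12 at 560 ± 159, Mup21 at 201 ± 33.4 and Mup8 at 29.3 ± 6.93 TPM followed, each separated from the one above in all libraries. Of the other Mup rows, Mup19 was the most abundant at 14173 ± 1320 TPM, but none of its 50-base windows was its own. Mup17 stood at 3148 TPM in 1 WT control library and was listed at 0 in the other 13 liver libraries.

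On alcohol diet in WT, all 9 genes were lower, and no control library overlapped an alcohol library for any of them, as was so for 18.4% of genes tested. Control libraries held 28844, 25017, 30086 and 22138 TPM of Mup7, and alcohol libraries 4.83, 3.74, 3.20 and 15.0 TPM. Mup20, the gene of darcin, went from 15052, 25444, 16381 and 10845 TPM to 55.3, 53.3, 47.9 and 57.6 TPM. Mup14 went from 11950, 10550, 11550 and 6805 TPM to 1.59, 1.37, 0.731 and 4.56 TPM. All control libraries of these 3 genes stood at 6805 TPM or more and all alcohol libraries at 57.6 TPM or less.

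Mup3 was the gene that kept the most. Its control libraries held 8341, 8370, 7520 and 7302 TPM and its alcohol libraries 1444, 1490, 1652 and 1535 TPM, so that 19.4% of its mean level remained. Mup21, the closest relative of Mup3, stood at 240, 208, 159 and 196 TPM and then at 5.02, 4.34, 4.83 and 3.62 TPM, which left 2.22%. The remaining means on alcohol were 0.316% of control for Mup20, 0.0252% for Mup7 and 0.0202% for Mup14. Mup3 alone made up 94.0% to 96.0% of the summed TPM of the 9 genes on alcohol diet, against 9.34% to 13.0% on control diet.

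On the log2(TPM + 1) scale, which understates the change of genes that end near 0, Mup7 fell by 11.97 (SE 0.352) and Mup14 fell by 11.81 (SE 0.318). Mup11 fell by 10.55 (SE 0.292), Mup1 fell by 8.62 (SE 0.413), Mup12 fell by 8.38 (SE 0.214) and Mup20 fell by 8.21 (SE 0.215). The smallest differences were those of Mup21, which fell by 5.20 (SE 0.145), Mup8, which fell by 4.78 (SE 0.180), and Mup3, which fell by 2.36 (SE 0.103). The median over the 9 genes was -8.38, beside -0.05 over all 9747 genes tested. Limma called 9 of 9 lower at an adjusted p under 0.05, where 17.9% of all genes tested were called lower and 31.2% in either direction. Because diet values chose the genes, nothing is read from that count. Rescaling TPM over all genes but the Mup rows moved the median of all genes by -0.13 and the genes called from 1296 higher and 1746 lower to 951 higher and 2768 lower, with all 9 Mup genes still lower. Of the 12 other Mup rows 10 passed the filter on low values, and 9 of these were lower in WT on alcohol. Mup17, the remaining one, had 1 library above 0.

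Hepatocyte markers were not lower on alcohol diet as a whole in WT. Their summed TPM was 177796 to 197892 on control diet and 200599 to 219194 on alcohol, and Alb, the albumin gene, stood at 86946 to 109522 and at 112218 to 128159 TPM. TPM are shares, and all Mup rows held 7.26% to 10.9% of them on control diet and 0.177% to 0.251% on alcohol. Scaling alone therefore raises the TPM of other genes on alcohol, and the marker sums in this paragraph were not rescaled for that. Of 14 hepatocyte markers tested, limma called 2 higher and 2 lower, beside 31.2% of all genes in either direction, and Cyp2e1, the ethanol-oxidising cytochrome, fell by 0.39 (adjusted p = 0.0369). Summed TPM of the 10 macrophage markers, none at 0, was 217 to 235 on control diet and 265.2 to 399 on alcohol, that of the 8 endothelial markers 66.1 to 169 and 99.7 to 223, that of the 8 stellate markers 39.5 to 59.2 and 70.8 to 127, and that of the 5 cholangiocyte markers 22.3 to 74.5 and 42.4 to 141. Limma called 1 of 10 macrophage markers higher, Cd14 (mean 7.99 TPM on control diet and 59.7 TPM on alcohol). Of those tested, 3 of 8 endothelial, 3 of 6 stellate and 0 of 2 cholangiocyte markers were called higher, beside 13.3% of genes. Fewer cells of a type and less RNA per cell cannot be told apart in bulk liver, and the part of these other cells in the Mup values was not tested.

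**Figure D2:**
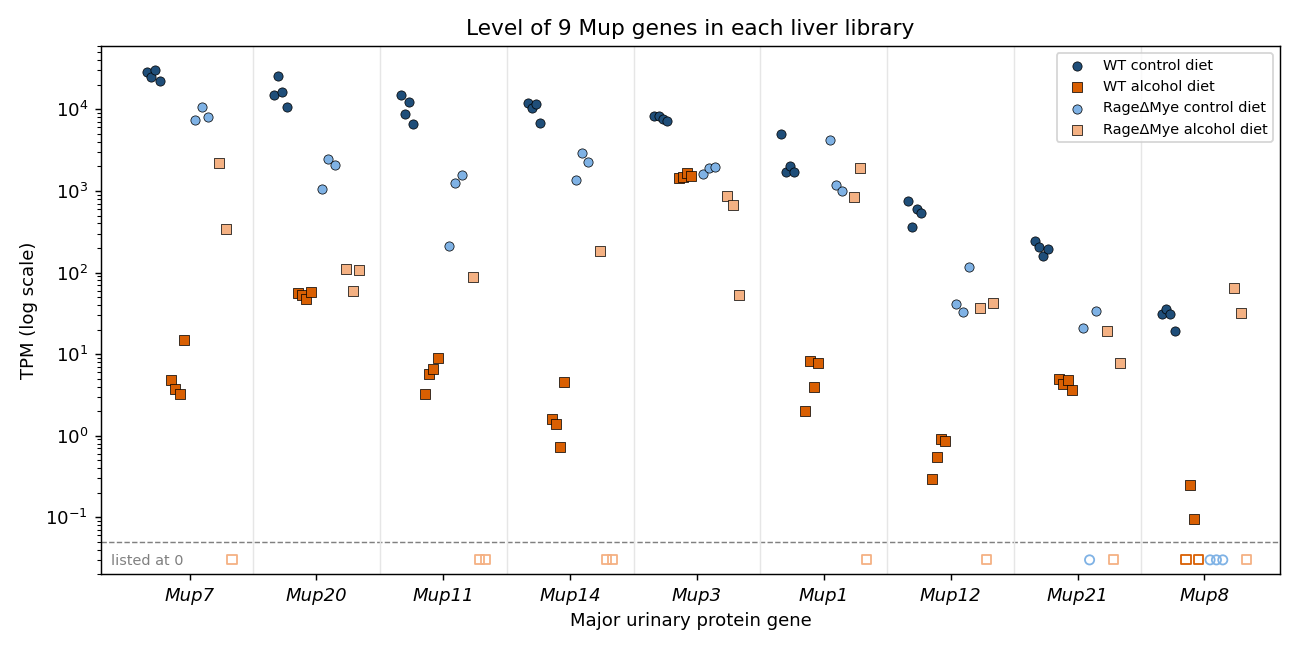
TPM on a log scale of each of the 9 Mup genes in each of the 14 liver libraries, coloured by genotype and diet, with open symbols under the dashed line for values listed at 0. WT alcohol libraries sit below all WT control libraries for every gene, and Mup3 stays above 1444 TPM in WT. The RageΔMye alcohol libraries are spread far more widely than WT libraries for every gene but Mup20.

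RageΔMye liver on control diet held a smaller share of Mup mRNA than WT. The 9 genes summed to 16039, 20580 and 17071 TPM, and all Mup rows held 2.14% to 3.30% of TPM. Mup7 was again the highest, at 7475, 10809 and 8078 TPM, while Mup3 stood at 1618, 1922 and 1963 TPM and Mup20 at 1067, 2442 and 2069 TPM. Mup8 was listed at 0 in all 3 libraries and Mup21 in 1 of them. For 8 of the 9 genes, all but Mup1, every RageΔMye library was below every WT library, a pattern shown by 37.7% of genes tested.

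The difference between genotypes on control diet rests on libraries whose values also chose the genes, so it is a description and gives no independent test. In a limma fit of all 14 libraries with weights per genotype, Mup3, Mup8, Mup12, Mup20 and Mup21 were called lower in RageΔMye, 5 of 9, where 20.3% of all genes were called lower and 35.7% in either direction. The log2 difference was -3.20 (SE 0.851) for Mup20 and -2.11 (SE 0.585) for Mup3. Mup8, listed at 0 in all 3 RageΔMye control libraries, passed the filter on low values only through WT. When each genotype was fitted alone and the estimates were combined, 2 of 9 passed where 37.5% of all genes did, Mup20 and Mup8. Over all genes the median difference was -0.59, and hepatocyte markers had a median of -1.94. Set against the summed hepatocyte markers of the same library, all Mup rows came to 61.6%, 51.9%, 56.8% and 37.6% in WT and to 33.9%, 57.1% and 31.2% in RageΔMye, and these ranges overlap. Genotype went together with the number of genes above 0 and with the opposite-strand share, and these cannot be told apart.

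On alcohol diet, the 3 RageΔMye libraries differed widely from each other. The 9 genes summed to 4413, 3041 and 211 TPM, and all 21 rows to 10966, 11282 and 460 TPM. Mup20 was the gene whose 3 libraries agreed best, at 110, 58.6 and 107 TPM after 1067 to 2442 TPM on control diet, which left 4.95% of its mean. Mup3 stood at 875, 680 and 53.1 TPM. Mup7 stood at 2198, 344 and 0 TPM and Mup14 at 182, 0 and 0 TPM. Of the 9 genes, 0, 4 and 5 were listed at 0 in replicates 1, 2 and 3. Mup12, Mup20 and Mup21 were higher in replicate 3 than in replicate 2, although the sum was lowest in replicate 3.

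Mup1 had the highest mean of the 9 genes in RageΔMye on alcohol diet, 922 TPM, beside 847 TPM for Mup7, and the libraries of these genes overlapped. Mup1 levels of 4256, 1182 and 1009 TPM in control libraries faced 840, 1926 and 0 TPM in alcohol libraries, so the diets overlapped. Mup12 at 41.7, 33.3 and 118 against 36.7, 0 and 42.8 TPM and Mup21 at 20.9, 0 and 33.9 against 19.1, 0 and 7.72 TPM overlapped as well. Mup11 stood at 210, 1267 and 1565 TPM and then at 86.9, 0 and 0 TPM, without overlap. Mup8 was above 0 only on alcohol diet, at 65.1, 31.8 and 0 TPM. The lowest value above 0 among the 9 genes was 7.72 to 33.9 TPM in these 6 libraries.

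On the log2(TPM + 1) scale, Mup20 fell by 4.29 (SE 0.389) in RageΔMye and Mup3 fell by 2.52 (SE 0.937). Mup14 fell by 8.51 (SE 1.83), Mup11 fell by 7.39 (SE 1.71) and Mup7 fell by 6.57 (SE 2.41), with 1 or 2 alcohol libraries listed at 0 in each case. The difference was -3.87 (SE 2.53) for Mup1, -2.24 (SE 1.40) for Mup12, -0.71 (SE 1.60) for Mup21 and 3.69 (SE 1.51) for Mup8. The diets did not overlap for Mup3, Mup7, Mup11, Mup14 and Mup20, 5 of 9, and 5.85% of genes tested showed every alcohol library lower. Limma called 1 of 9, Mup20, where 0.0374% of genes were called in either direction, 4 of 10689 (747 at an unadjusted p under 0.05). The median over the 9 genes was -3.87, beside 0.01 over all genes tested. That Mup20 call was lost without any 1 of 4 libraries (control replicates 2 and 3, alcohol replicates 2 and 3).

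**Figure D3:**
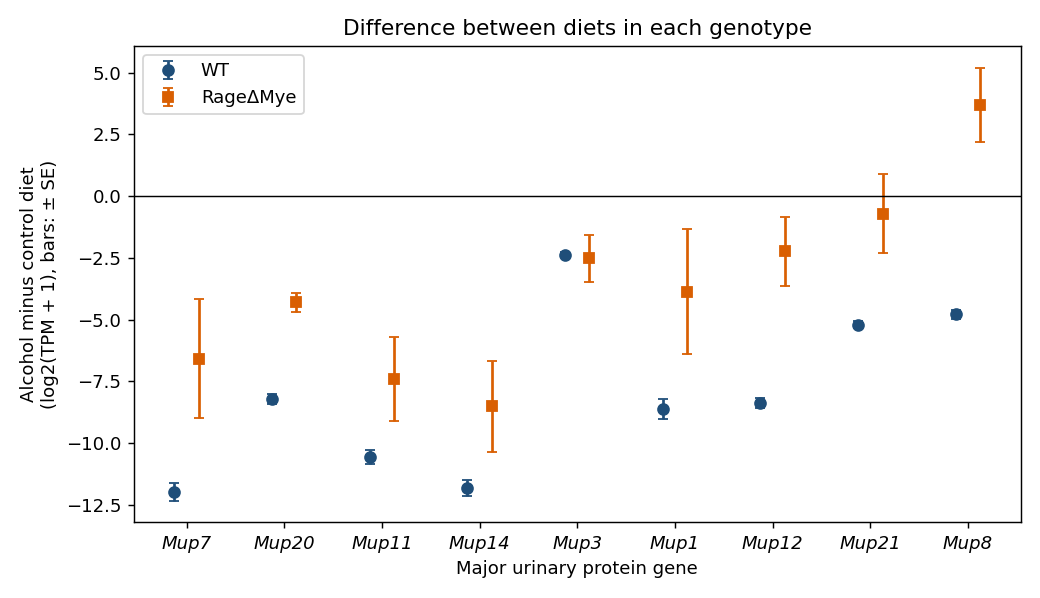
Difference between alcohol and control diet on the log2(TPM + 1) scale for each gene, with bars of 1 SE, in WT (circles, 8 libraries) and RageΔMye (squares, 6 libraries). The points lie near each other for Mup3, and with the pseudocount of 1 TPM the RageΔMye point is the higher one for the other 8 genes, most of them with wide bars. For Mup8, Mup11, Mup12, Mup14 and Mup21, control levels in RageΔMye were too low for a fall as large as that in WT.

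Between genotypes on alcohol diet, also over libraries that chose the genes, the weighted fit called Mup3 lower in RageΔMye (-2.26, SE 0.585) and Mup8 higher although its libraries overlapped, 2 of 9 where 33.6% of genes were called. In the separate fits combined 0 of 9 passed where 36.2% of genes did, and 2 of 9 had an unadjusted p under 0.05. These counts are a description as well. Every RageΔMye library lay above every WT library for Mup20, by 58.6 against 57.6 TPM at the nearest, and below every WT library for Mup3. Mup20 did not pass in the weighted limma fit (0.72, adjusted p = 0.536). The share of all genes without overlap is not given for this diet, so nothing is read from that pattern.

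Set side by side, the difference on alcohol was more negative in WT for 8 of the 9 genes, of which Mup8 had a positive one in RageΔMye. With a pseudocount of 0.01 TPM this order turned for Mup11 (-1.03) and Mup14 (-0.38), and without RageΔMye alcohol replicate 3 it turned for Mup3 (1.12). On the log2(TPM + 1) scale a fall cannot exceed the control level. RageΔMye control levels of Mup8, Mup11, Mup12, Mup14 and Mup21 were too low for a fall as large as that in WT. For these genes the order was fixed in advance, and nothing is read from it. Over all genes tested, the RageΔMye difference was the higher one for 6270 of 12069. The RageΔMye difference minus the WT difference was 3.92 for Mup20 on the log2 scale, 5.40 for Mup7, 3.30 for Mup14, 3.16 for Mup11 and 4.74 for Mup1, and it was 6.14 for Mup12, 4.50 for Mup21 and 8.47 for Mup8. For Mup3 it was -0.16, with 19.4% of the control mean left in WT and 29.2% in RageΔMye. In sums of the 9 genes, 2.13% of the control mean was left in WT and 14.3% in RageΔMye, and the difference of the 2 log2 changes of this sum was 1.88. It was 3.26 without RageΔMye alcohol replicate 3 and 1.06 without replicate 1. The weighted limma fit called 1 of 9, Mup8, where 0.505% of 12069 genes were called. The separate fits combined also called 1 of 9, but it was Mup20, where 2.78% of genes were called. These counts come from the comparison that chose the genes and are a description only. In WT the diets also differed in Xist, at 0.00165 to 0.135 TPM on control diet and 17.8 to 27.3 TPM on alcohol. RageΔMye libraries held Xist at 0 to 3.10 TPM on control diet and 0.322 to 0.990 TPM on alcohol. Y-linked sums were lower on alcohol in both genotypes. Genotype and this sex-linked signal cannot be told apart in the difference of diet effects. The WT alcohol means of 7 of the 9 genes, all but Mup3 and Mup20, were below 7.72 TPM, the smallest value above 0 of the 9 genes in any RageΔMye library. Other genes were listed lower there, such as the Y-linked Uty at 0.0571 TPM in 1 control library, and without read counts no detection limit is known.

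A ratio of 2 distinguishable genes within a library does not depend on library scaling. Mup20 per Mup3 was 1.49 to 3.04 in WT on control diet and 0.0290 to 0.0383 on alcohol. In RageΔMye it was 0.659 to 1.27 on control diet and 0.0862 to 2.02 on alcohol, the highest value being that of replicate 3, in which Mup3 was lowest. The ratio was thus lower in every WT alcohol library than in every WT control library, and in RageΔMye the ranges of the diets overlapped.

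Summed over the 12 other Mup rows, a larger share was left in RageΔMye than over the 9 described genes, but the rows differed. The sum was 8982, 12434 and 4299 TPM on control diet and 6553, 8241 and 249 TPM on alcohol, which is 58.5% of the control mean, against 2.61% in WT. Mup9 stood at 2281, 3418 and 0 TPM, Mup15 at 1988, 3186 and 0 TPM and Mup2 at 1907, 92.9 and 152 TPM in RageΔMye on alcohol diet. Mup10 was listed at 0 in 5 of the 6 RageΔMye libraries and at 1544 TPM in alcohol replicate 2. Mean levels of Mup9 and Mup15 came to 254% and 138% of control, whereas Mup2 kept 17.2% and Mup19 8.36%. Mup13 and Mup18 were listed at 0 in all 3 alcohol libraries, and Mup4, Mup5, Mup6, Mup16 and Mup17 in all 6 RageΔMye libraries. The 9 genes made up 73.6% to 78.3% of Mup TPM in WT on control diet and 27.0% to 45.9% in RageΔMye on alcohol. Coding sequences of Mup9, Mup15 and Mup2 are at least 99.6% identical to that of another Mup gene, so their part in this share was not told apart from that of the near-identical genes described here.

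**Figure D4:**
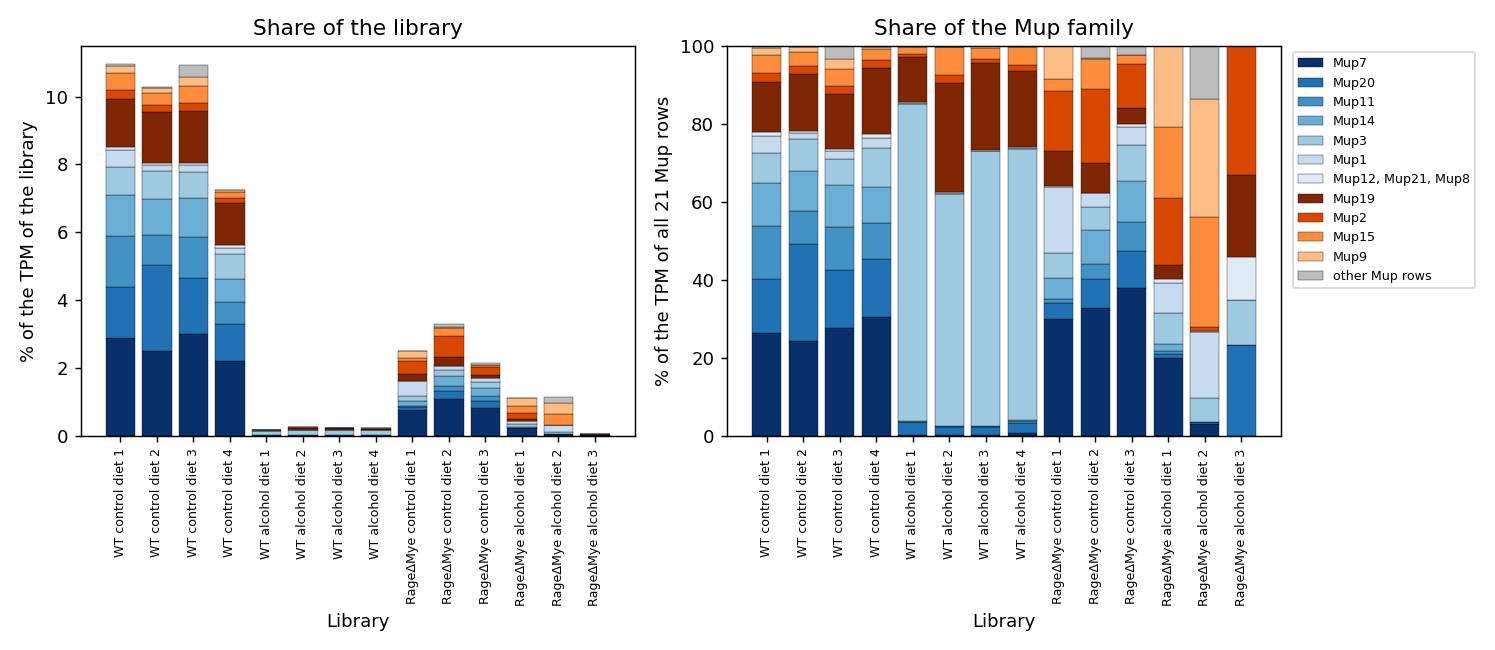
Stacked TPM of the Mup genes in each of the 14 liver libraries, as a percentage of the library (left) and of all 21 Mup rows (right), with the described genes in blue and the others in brown, orange and grey. Mup3 fills most of the WT alcohol bars on the right, and rows outside the 9 genes fill most of the RageΔMye alcohol bars.

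Other male-biased genes were examined next, since they share growth hormone control with the Mup genes. Gene lists here and below were chosen with earlier results of these data known, so their counts are a description. In WT on alcohol, limma called 12 of 12 lower, where 17.9% of all genes were, with a median of -5.00. Cyp4a12a, an arachidonic acid hydroxylase, fell by 7.95 (adjusted p = 5.07e-10) and Cyp2d9, a steroid hydroxylase, fell by 6.41 (adjusted p = 5.46e-10). Of 21 female-biased genes 21 were called higher, with a median of 6.66, where 13.3% of all genes were called higher. Cux2, a repressor of male-biased genes in female liver, rose by 1.51 (adjusted p = 0.000885). The same libraries differed in sex-linked transcripts, with Xist at 0.00165 to 0.135 TPM on control diet and 17.8 to 27.3 TPM on alcohol and Y-linked sums of 11.3 to 16.6 and 0 to 0.0161 TPM, and diet and sex-linked signal cannot be told apart for these lists. In RageΔMye none of the 11 male-biased and 10 female-biased genes tested passed in limma, and 4 and 3 of them had an unadjusted p under 0.05. All 11 male-biased differences were negative, as were 5311 of 10689 over all genes tested. Their median was -0.99, from -6.03 to -0.04, the last being that of Cyp2d9. The median was the value of Cyp4a12b, which stood at 0 to 6.91 TPM on control diet and at 0 on alcohol. That gene passed the filter on low values only through control diet, so its difference could only be negative. Elovl3, a fatty acid elongase, had a difference of -5.34 (adjusted p = 0.138) and Selenbp2, a selenium-binding protein, one of -4.32 (adjusted p = 0.210).

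Of 15 growth hormone signalling genes tested in WT, 5 were called higher and 2 lower, beside 13.3% and 17.9% of all genes. Of those called higher, Cux2 and Prlr also stand in the female-biased list. Xist and Y-linked transcripts differed between the same WT libraries. Diet and sex-linked signal therefore cannot be told apart for the WT differences in this paragraph either. Stat5b had a difference of -0.09 (adjusted p = 0.686), Ghr, the growth hormone receptor, one of -0.27 (adjusted p = 0.148) and Bcl6, a male-biased repressor, one of -0.36 (adjusted p = 0.171). Prlr, the prolactin receptor, rose by 1.98 and Stat3 rose by 0.95, whereas Igfals, the acid-labile subunit that carries IGF1, fell by 1.04. Of 14 hepatocyte transcription factors 2 were called higher and 3 lower, which can be read against the same shares. Hnf4a rose by 0.56 (adjusted p = 0.0282), Esr1, the oestrogen receptor, rose by 1.53 and Cebpa fell by 0.92 (adjusted p = 0.00102). Zhx2, a factor known to act on Mup genes, had a difference of 0.09 (adjusted p = 0.658). Of 9 other lipocalin genes 4 were called higher in WT (13.3% of all genes were), among them Lcn2, an acute-phase iron-siderophore carrier, which rose by 3.53 (adjusted p = 0.00271), and Orm1, which rose by 1.26. In RageΔMye limma called none of the genes of these 3 lists, of which 1, 2 and 2 had an unadjusted p under 0.05, and Bcl6 had a difference of 2.02 (adjusted p = 0.207).

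**Figure D5:**
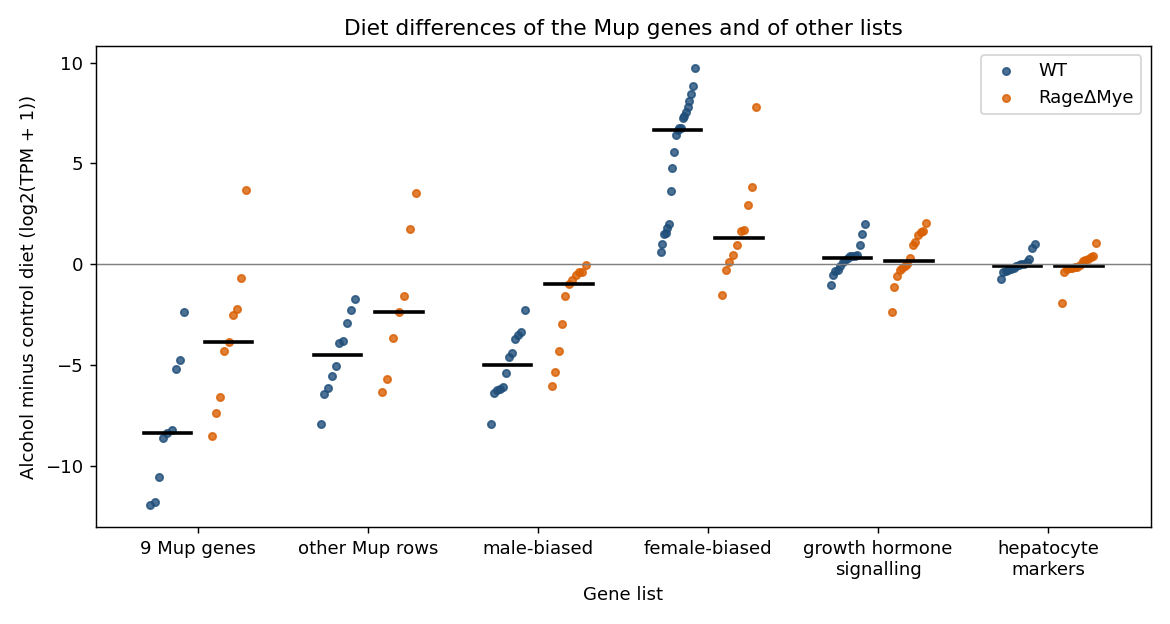
Difference between alcohol and control diet on the log2(TPM + 1) scale for each tested gene of 6 lists, in WT (blue) and RageΔMye (orange), with a black line at the median of each list. In WT the 9 Mup genes and the male-biased genes lie below 0 and the female-biased genes above it, and hepatocyte markers lie around 0.

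Over 5711 genes averaging 10 TPM or more in 1 of the groups, likeness of pattern was measured as the root mean square difference of centred log2(TPM + 1) values over the 14 liver libraries. Mup rows and genes with predicted names were left out of this search. The remaining genes nearest to Mup20 were Elovl3 (1.28), Serpina4-ps1 (1.43), Serpina1e (1.64), Cyp4a12b (1.64) and Selenbp2 (1.71). Serpina1e, a plasma protease inhibitor, averaged 22304 ± 6171 TPM (SD, n = 4) in WT control libraries and 582 ± 434 TPM in WT alcohol libraries. Outside the family, Mup21 was nearest to Cyp4a12b (1.29), Mup12 to Cyp2d9 (1.79), Mup1 to Cyp4a12a (1.72), Mup7 to Cyp4a12a (2.62), and Mup11 and Mup14 to Elovl3 (2.27 and 2.60). Mup3 was nearest to Tedc2 (0.616) and Mup8 to Bid (1.57). Among the 9 genes themselves the closest pairs were Mup11 with Mup14 (1.14), Mup12 with Mup20 (1.42), Mup1 with Mup7 (1.91) and Mup12 with Mup21 (1.90), some of them closer than any gene outside the family. The points share libraries and diets, so these values are a description.

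Genes beside the cluster were counted after the Mup values had been seen. Of 29 other genes within 1 Mb of either end, 17 were tested in WT, of which 3 were lower on alcohol (Hdhd3 by -1.39, Rgs3 by -0.62, Fkbp15 by -0.39) and Ugcg, a glucosylceramide synthase, rose by 1.08. Over all genes tested, 17.9% were lower and 13.3% higher. The median difference of the 17 was -0.01. The series also holds 6 libraries of RAW264.7, a macrophage-like line of mouse origin. These had 126 Mup values in 21 rows and 6 libraries, and 0 of them were above 0.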

How the data were processed

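RNA was sequenced from 14 mouse liver libraries with a TruSeq Stranded kit for mRNA, as the labels' protocols state. Per the submitters' processing notes, mm10 was the genome build. No source used here gives the aligner, counting tool or strand setting. The authors deposited 1 table of liver values without a named unit. It was read as TPM, because its columns sum to 1000000 to 1000004, so read depth and counting error are unknown. A table of RAW264.7 cells, also deposited by the authors and taken here as TPM, was used for the Mup rows only.

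Values were analysed as log2(TPM + 1), and a gene was tested when some group of the fit averaged 1 TPM or more. Diets were compared with limma 3.58.1 (R 4.3.3, intensity trend) within each genotype, and the difference of diet effects and the genotype contrasts in 1 fit with weights per genotype. P-values were adjusted by Benjamini-Hochberg over all genes tested, with a threshold of 0.05. These main fits were tested on simulated data. A fit of each genotype alone with combined estimates was then added as an alternative, after the data had been seen, and was simulated too. The other alternatives were not simulated. The members, gene lists and motifs were chosen with earlier results of these data known. Named genes are the Mup genes, the lowest adjusted p-values in each list (up to 4 called in WT, otherwise 2 as values), fixed regulators (Stat5b, Ghr, Bcl6, Cux2, Hnf4a, Zhx2) and those nearest in pattern. A gene that this rule names is not reported here. Coding sequences came from GENCODE M21 and were aligned with Biopython 1.88. For each gene the transcript with a coding length nearest the family median was used. Upstream windows came from RefSeq (GRCm38.p6). Replicate numbers of WT samples are accession order. Alternatives were pseudocounts, filters, scalings, a joint fit, a replicate block and omission of each library.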

Additional observations from a re-analysis of the deposited data

Results flagged for a closer look

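In 22 groups of 4 libraries that were examined for a sample far from the others, 3 stood out, and chance alone gives about 1 in 20. Mup1 was 4953 TPM in WT control replicate 1, while the other 3 libraries stood at 1692 to 2029 TPM. Mup7 was 15.0 TPM in WT alcohol replicate 4, against 3.20 to 4.83 TPM in the others. The sum of the 9 Mup genes was 56108 TPM in WT control replicate 4, against 80466 to 85228 TPM in the others.

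The diet effect differed between genotypes for 2 genes, each by 1 of the 2 limma fits, and these values describe the comparison that chose the genes. WT diets also differed in Xist and Y-linked transcripts, which cannot be told apart from diet. No effect of genotype is read from these values. For Mup8 the RageΔMye difference exceeded the WT difference by 8.47 on the log2(TPM + 1) scale in the fit with weights per genotype (adjusted p = 0.0161), and its adjusted p was 0.1005 in the separate fits combined. Mup8 was listed at 0 in all RageΔMye control libraries, so it could not fall there and no fold is given. For Mup20 the excess was 3.92 (adjusted p = 0.00652 in the separate fits combined, adjusted p = 0.313 with weights). Libraries of the 2 diets were not paired. Every alcohol library of Mup20 lay below every control library of its genotype, 4 against 4 in WT and 3 against 3 in RageΔMye.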

How the results depend on the processing

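TPM hold no read counts, so depth is unknown. All 9 genes were called lower in WT under 7 of 8 settings and without each library in turn, and 8 of 9 in the joint fit without weights, in which Mup3 did not pass. For each change below the cause was not tested.

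The 3042 genes called in WT became 1881 with a minimum of 5 TPM and 337 in the joint fit, and 2055 to 3469 with 1 library left out. In RageΔMye the 4 genes called became 0 with a pseudocount of 0.01 TPM, 9 with a minimum of 5 TPM, 7 with quantile normalization and 657 in the joint fit, and 0 to 5 with 1 library left out. The 1 Mup call there became 0 with a pseudocount of 0.01 TPM and 3 in the joint fit, and 0 to 1 with 1 library left out. With the replicate block limma called 0 genes and 0 Mup genes (622 and 6 at an unadjusted p under 0.05). Deviations of same-numbered RageΔMye libraries correlated at 0.02, -0.02 and -0.0004, and those of the other pairs at -0.04 to 0.04. Whether same-numbered libraries shared more than a number is not known.

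For the difference of diet effects, 61 genes became 126 without a filter, 463 in the joint fit and 336 in the separate fits combined, and 50 to 71 with 1 library left out. Its 1 Mup call became 0 with pseudocounts of 0.1 and 0.01 TPM and 3 in the joint fit, and 0 to 1 with 1 library left out. The 5 Mup calls between genotypes on control diet became 3 with a pseudocount of 0.01 TPM and 2 in the separate fits combined, and 2 to 6 with 1 library left out. On alcohol diet the 2 Mup calls became 1 with pseudocounts of 0.1 and 0.01 TPM and 0 in the separate fits combined, and 1 to 3 with 1 library left out, where the 4058 genes called became 2595 to 4310. The difference of the summed log2 changes was 1.06 to 3.26 with 1 library left out.

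Signs turned for Mup21 in RageΔMye, whose difference was -2.30 to 0.54 with 1 library left out (0.26 without control replicate 3, 0.54 without alcohol replicate 2). In the difference of diet effects they turned for Mup11 (-1.03) and Mup14 (-0.38) with a pseudocount of 0.01 TPM and for Mup3 without RageΔMye alcohol replicate 3 (-0.89 to 1.12 with 1 library left out). Between genotypes on alcohol diet, Mup14 turned to -0.53 and -2.65 and Mup21 to -0.87 and -1.96 with pseudocounts of 0.1 and 0.01 TPM. With 1 library left out Mup14 was -1.47 to 2.29, Mup21 -0.88 to 1.29 and Mup11 -2.76 to 0.47. Mup14 and Mup21 were below 0 without RageΔMye alcohol replicate 1, Mup11 was above 0 without replicate 2 or 3, and Mup21 was also below 0 without replicate 3 (-0.27) and without WT alcohol replicate 4 (-0.03).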
